A study of Mus musculus with 162 samples.

Results

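Gene expression in the trigeminal ganglion was measured by RNA-seq in wild-type mice that had been injected with phosphate-buffered saline (PBS) and whose cheek had been treated with MC903 or with ethanol, at day 8. The members were chosen by their labels alone (trigeminal ganglion, wild-type, PBS injection, day 8), which gave 7 of the 162 libraries of the series, 4 of MC903-treated and 3 of ethanol-treated mice. All were adult male C57BL/6 mice. MC903 (calcipotriol), a vitamin D analog, was applied daily to the shaved cheek in a volume of 20 µL at 0.2 mM, and ethanol is its vehicle. PBS was given intraperitoneally to both groups and is the vehicle of the anti-Gr1 antibody (aGr1, 250 µg), which other mice of the series received, so these libraries are the antibody's own controls. The study used MC903 as a model of atopic dermatitis and of chronic itch, and asked in the ganglion how the sensory neurons of the treated cheek respond. Ganglia were taken from the treated side, and the labels do not say which libraries come from separate mice, so the p-values measure the spread between these libraries.

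The trigeminal ganglion holds the cell bodies of the sensory neurons that innervate the face, wrapped by satellite glia, together with Schwann cells, fibroblasts, vessels and resident macrophages. One class of small neurons, called NP3, transmits itch: it makes natriuretic peptide B (Nppb) and carries the receptors for interleukin-31, for cysteinyl leukotrienes and for serotonin. Interleukin-31 binds a receptor made of IL31RA and OSMR, which signals through Janus kinases and STAT transcription factors. A bulk library mixes all cells of the ganglion, and fewer cells of a type and less RNA per cell cannot be told apart in it.

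The 7 libraries held between 15931871 and 21536640 counts on genes, and their log2 levels correlated with each other at Pearson's r of 0.991 to 0.996 across genes. The defining markers of sensory neurons were present in every library: the 18 marker genes summed to 18806 to 18981 cpm (counts scaled to library size) with ethanol and to 18849.7 to 19415 cpm with MC903. In a principal component analysis the first component, which held 38.2% of the variance, placed the ethanol libraries between -15.3 and -10.9, MC903 replicates 1 to 3 between 13.1 and 18.1, and MC903 replicate 4 at -7.46, on the side of the ethanol libraries. Ethanol replicate 3 held the most RNA of skeletal muscle (37.5 cpm summed over 12 markers, against 6.65 to 12.9 cpm in the other 6) and of neutrophils (52.7 cpm over 15 markers, against 10.7 to 28.3 cpm).

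Between MC903 and ethanol, 796 of the 23708 genes tested differed at an adjusted p under 0.1, the threshold of the study for this tissue, in edgeR's quasi-likelihood test with Benjamini-Hochberg adjustment. That is 3.36% of the genes tested. Below, log2 fold changes are of MC903 over ethanol and are given ± SE, levels are in cpm (counts scaled to each library's total after TMM normalization), and called means past this threshold. Of these, 452 genes (1.91%) were higher and 344 genes (1.45%) were lower with MC903. The groups did not overlap in 751 of the 796 genes, and over all genes tested they did not overlap in 13.1% (7.17% higher and 5.97% lower with MC903). Most changes were small: the median absolute log2 fold change was 0.42 among the genes that rose, 0.31 among those that fell and 0.14 over all genes tested, and 94 of the called genes changed by more than 2-fold, 66 of them upwards. Without MC903 replicate 4 the count was 3602 genes, which included all 796, and without any other single library it lay between 246 (ethanol replicate 3) and 417 (MC903 replicate 2). When the spread was estimated together with the anti-Gr1 libraries 145 genes were called, and with all 25 wild-type day 8 ganglion libraries 68, all of them among the 796. There were 57 genes, 52 higher and 5 lower, that were called in the same direction under every one of the 16 alternatives tried.

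Part of the genes of the NP3 itch neurons rose in the ganglia of MC903-treated mice. Of the 13 genes of this list, 5 rose (Il31ra, Osmr, Nppb, Cysltr2 and Trpa1) and none fell, and the list's median log2 fold change was 0.26, against 0.0043 over all genes tested. The count of higher genes was 5 without each library in turn, and 1 gene fell without ethanol replicate 1 or MC903 replicate 4. All 5 are named by the study for this tissue and are not independent evidence of a direction, and none of the other 8 was called. Il31ra, the interleukin-31 receptor subunit (chr13:112519898-112594360, GRCm38), had the smallest p-value of the whole comparison. Its level was 15.4, 16.5 and 16.3 cpm in the 3 ethanol libraries and 33.5, 32.6, 40.5 and 36.4 cpm in the 4 MC903 libraries. Every MC903 library was above every ethanol library (log2 fold change 1.15 ± 0.085, adjusted p = 4.73e-05). Osmr, the other subunit of the interleukin-31 receptor and also the receptor of oncostatin M, was at 26.7, 28.9 and 25.8 cpm with ethanol and at 39.5, 37.2, 49.1 and 40.9 cpm with MC903 (log2 fold change 0.62 ± 0.089, adjusted p = 0.00298). Nppb, the peptide that relays itch to the spinal cord, was at 2.25, 3.42 and 3.27 cpm with ethanol and 11.1, 10.8, 15.5 and 10.3 cpm with MC903. The groups were far apart for this gene, with MC903 replicate 3 above the other MC903 libraries (log2 fold change 1.97 ± 0.18, adjusted p = 0.000108). Cysltr2, a receptor for cysteinyl leukotrienes, rose from 5.24, 5.81 and 4.91 cpm to 8.98, 9.19, 10.5 and 8.70 cpm (log2 fold change 0.81 ± 0.11, adjusted p = 0.00258). Trpa1, the irritant-gated cation channel, rose from 58.7, 56.2 and 60.8 cpm to 83.98, 83.7, 80.7 and 76.2 cpm (log2 fold change 0.47 ± 0.055, adjusted p = 0.000812). The groups of Osmr, Cysltr2 and Trpa1 did not overlap either. Cysltr2 lost its call with the spread shared with all 25 libraries. Other genes of the same neurons were not called: somatostatin (Sst) had log2 fold change 0.22 ± 0.20, adjusted p = 0.667, neurotensin (Nts) log2 fold change -1.08 ± 0.43, adjusted p = 0.263, and the histamine receptor Hrh1 log2 fold change -0.11 ± 0.18, adjusted p = 0.8295. Their libraries overlapped between the groups.

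**Figure D1:**
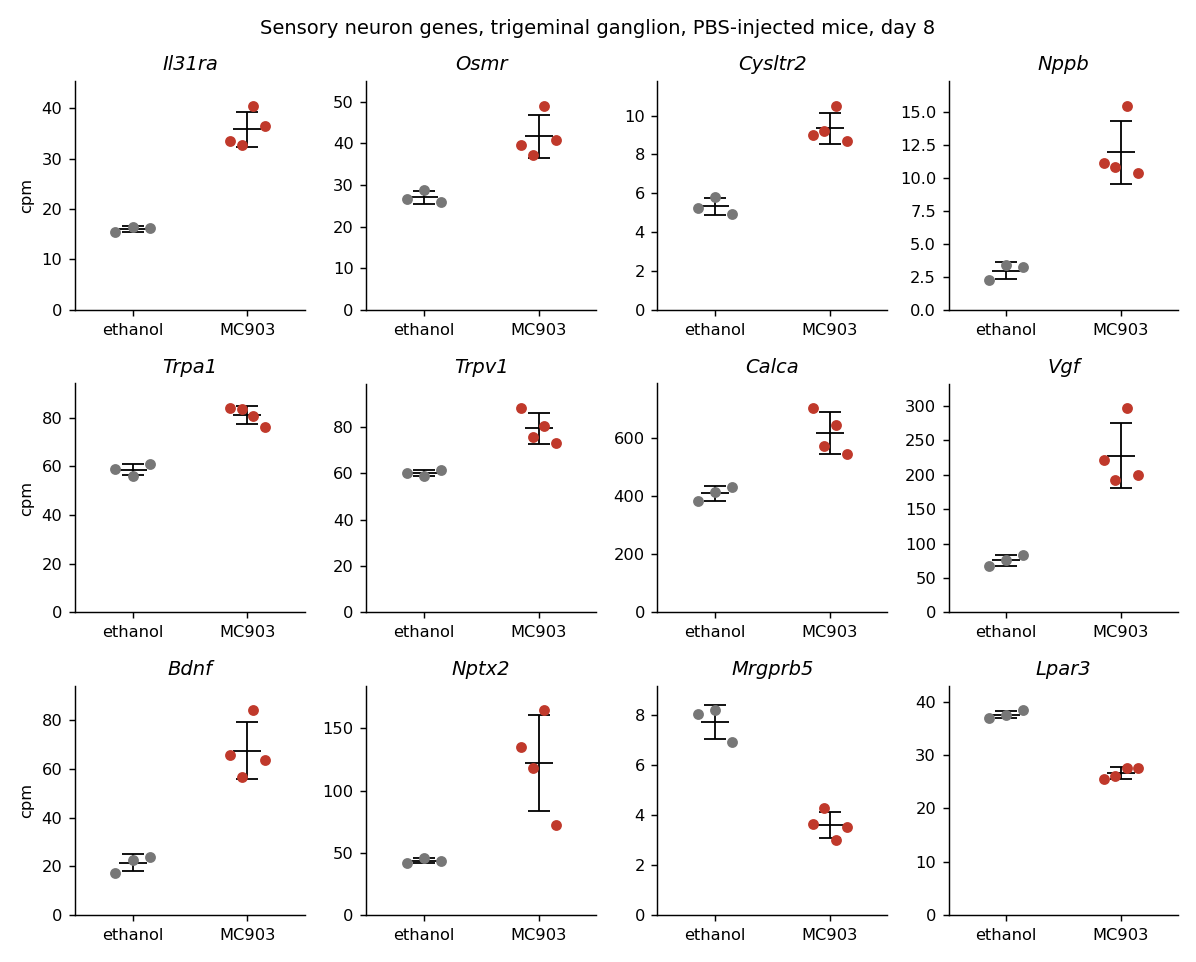
Expression of 12 sensory neuron genes in cpm (y axis, from 0) in the 3 ethanol (grey) and 4 MC903 (red) libraries of PBS-injected mice; points are libraries, bars the mean ± SD. The groups do not overlap in any of the 12 panels, and Mrgprb5 and Lpar3 are the panels with lower values under MC903.

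Mas-related and other receptor genes of sensory neurons fell or were not called. In the list of Mas-related and other pruriceptor genes, 3 of the 14 genes tested fell and none rose, and the list's median log2 fold change was 0.023. The count of lowered genes was 3 without each library in turn, and 1 gene rose without MC903 replicate 4. Mrgprb5, a Mas-related G protein-coupled receptor, was at 8.05, 8.20 and 6.94 cpm with ethanol and at 3.66, 4.28, 3.003 and 3.53 cpm with MC903. Its groups did not overlap (log2 fold change -1.09 ± 0.14, adjusted p = 0.00115). Mrgprb4, the receptor that marks neurons sensitive to gentle stroking, was at 12.1, 9.79 and 10.9 cpm and 6.02, 6.16, 6.53 and 6.23 cpm in the same order (log2 fold change -0.80 ± 0.10, adjusted p = 0.00145). Mrgprb4 lost its call with the spread shared with all 25 libraries. Mrgprb4 and Mrgprb5 are close copies of each other, so counts could be divided between them. Lpar3, a receptor for lysophosphatidic acid, fell from 36.9, 37.5 and 38.3 cpm to 25.4, 26.04, 27.5 and 27.6 cpm and had the smallest p-value of the lowered genes (log2 fold change -0.50 ± 0.061, adjusted p = 0.00102). Mrgprd, the beta-alanine receptor of another class of itch neurons, had log2 fold change -0.045 ± 0.078, adjusted p = 0.842, and Mrgpra3, the chloroquine receptor, had log2 fold change -0.20 ± 0.19, adjusted p = 0.671. Both overlapped between the groups.

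Some neuropeptide genes rose. Of 16 tested, 5 rose (Calca, Adcyap1, Tac1, Nmb and Nppb) and none fell, with a median log2 fold change of 0.38. The count ran from 2 (without ethanol replicate 2) to 7 (without MC903 replicate 4). Calca, which encodes calcitonin gene-related peptide, was at 383, 416 and 433 cpm with ethanol and 704, 573, 647 and 545 cpm with MC903. Its lowest MC903 library was above its highest ethanol library (log2 fold change 0.59 ± 0.077, adjusted p = 0.00147). Adcyap1, the PACAP gene, was at 37.0, 48.6 and 56.99 cpm and 73.7, 65.4, 69.7 and 65.6 cpm (log2 fold change 0.52 ± 0.11, adjusted p = 0.0243), and was not called without ethanol replicate 2. Tac1, the substance P gene, was at 127.5, 134 and 150.3 cpm and 190.1, 166, 159 and 163 cpm (log2 fold change 0.30 ± 0.070, adjusted p = 0.0421), and Nmb, the neuromedin B gene, at 44.9, 49.2 and 47.5 cpm and 66.6, 56.2, 61.7 and 51.99 cpm (log2 fold change 0.32 ± 0.078, adjusted p = 0.0540). Tac1 lost its call without ethanol replicate 1 or 2 or MC903 replicate 1, and Nmb without any 1 of the ethanol replicates or MC903 replicate 1 or 3. In all 4 of these genes the groups did not overlap.

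Among the sensory ion channels the direction differed from gene to gene. Of 21 TRP, Piezo and acid-sensing channel genes, 2 rose (Trpa1 and Trpv1) and 3 fell, Trpm8 and Trpc6 among them, and the median log2 fold change was -0.042. Trpv1, the capsaicin and heat receptor, was at 59.99, 58.5 and 61.4 cpm with ethanol and 87.99, 75.6, 80.2 and 73.01 cpm with MC903 (log2 fold change 0.40 ± 0.065, adjusted p = 0.00654). Trpm8, the cold and menthol receptor, fell from 196, 186 and 195 cpm to 176, 157, 169 and 158 cpm (log2 fold change -0.22 ± 0.052, adjusted p = 0.0461). Trpm8 lost its call without any 1 of the ethanol replicates or MC903 replicate 2, and Trpc6 (log2 fold change -0.42 ± 0.12, adjusted p = 0.0867) without any 1 of the ethanol replicates or MC903 replicate 2 or 3. Trpa1 and Trpv1 kept theirs without each library in turn. Trpv1 lost its call when the spread was shared with the anti-Gr1 or all 25 libraries. Of 14 voltage-gated sodium channel genes, none rose and 3 fell (Scn7a, Scn1a and Scn8a), with a median of -0.12. The lowered count ran from 0 (without ethanol replicate 2 or 3) to 6 (without MC903 replicate 4). Scn7a was at 760.1, 793 and 813 cpm with ethanol and 645, 618, 658 and 721 cpm with MC903 (log2 fold change -0.25 ± 0.052, adjusted p = 0.0256). Scn10a, the channel of nociceptors, was at 794, 765 and 761 cpm and 949, 823, 966 and 809 cpm (log2 fold change 0.20 ± 0.062, adjusted p = 0.140) and did not pass the test.

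RNA of several secreted and synaptic proteins of neurons was higher. All 6 genes of a list made of Bdnf, Vgf, Alkal2 and the pentraxins Nptx1, Nptx2 and Nptxr rose, with a median log2 fold change of 1.54, and all 6 were called without each library in turn. Nptx1 lost its call with the spread shared with the anti-Gr1 or all 25 libraries, and Nptx2 with a robust spread. Of these 6, Bdnf, Vgf, Nptx1, Nptx2 and Nptxr are named by the study for this tissue and are not independent evidence of a direction. Bdnf, brain-derived neurotrophic factor, was at 17.4, 22.7 and 23.96 cpm with ethanol and 65.5, 56.6, 83.98 and 63.5 cpm with MC903. Its lowest MC903 library was more than 2-fold above its highest ethanol library (log2 fold change 1.65 ± 0.13, adjusted p = 4.73e-05). Vgf, a precursor of several secreted peptides, was at 67.5, 76.1 and 83.7 cpm and 222, 193, 297 and 199.7 cpm (log2 fold change 1.58 ± 0.13, adjusted p = 4.95e-05). Alkal2, a ligand of the ALK and LTK receptor kinases, was at 1.06, 1.31 and 1.24 cpm and 11.2, 7.03, 13.5 and 6.14 cpm. Its fold change, 7.7, was the largest of the 24 genes with the smallest p-values (log2 fold change 2.95 ± 0.30, adjusted p = 0.000318). The neuronal pentraxins cluster glutamate receptors at synapses. Nptx2 was at 41.6, 45.5 and 43.2 cpm with ethanol and 135, 118.3, 164 and 72.05 cpm with MC903, with MC903 replicate 4 the lowest of its group but still above every ethanol library (log2 fold change 1.49 ± 0.20, adjusted p = 0.00147). Nptxr was at 100.4, 92.7 and 91.4 cpm and 156, 139, 165 and 130.2 cpm (log2 fold change 0.64 ± 0.075, adjusted p = 0.000812), and Nptx1 at 243, 232 and 236 cpm and 342, 327, 369.6 and 309 cpm (log2 fold change 0.51 ± 0.058, adjusted p = 0.000652). In the wider list of neurotrophin and GDNF family ligands and receptors, 2 of 18 genes rose (Bdnf and Ngfr) and 1 fell (Ntrk3). Ngfr, the low-affinity neurotrophin receptor, was at 565, 553 and 570.1 cpm and 867, 727, 802 and 689 cpm (log2 fold change 0.45 ± 0.066, adjusted p = 0.00305). Ngfr lost its call with the spread shared with the anti-Gr1 or all 25 libraries. Ntrk3, the receptor of neurotrophin-3, was at 79.2, 61.7 and 63.1 cpm and 54.2, 55.4, 52.4 and 49.8 cpm (log2 fold change -0.36 ± 0.080, adjusted p = 0.0372), a call lost without ethanol replicate 1 or MC903 replicate 3.

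Activity-induced genes rose in part. Of 34 tested, 6 rose (Vgf, Fosl2, Junb, Zfp36, Scg2 and Dusp6), none fell, and 28 had a positive log2 fold change, with a median of 0.25. The count of higher genes ran from 3 (without ethanol replicate 2) to 15 (without MC903 replicate 4, where 2 others fell). Fosl2, a Fos-family subunit of the AP-1 transcription factor, was at 9.18, 9.04 and 9.67 cpm with ethanol and 21.5, 25.2, 30.3 and 20.1 cpm with MC903 (log2 fold change 1.38 ± 0.13, adjusted p = 0.000181). Junb, an AP-1 partner of the Jun family, was at 6.62, 7.03 and 5.95 cpm and 11.7, 14.4, 18.02 and 13.96 cpm (log2 fold change 1.15 ± 0.14, adjusted p = 0.000946). Both were called under every alternative. Vgf and Junb are named by the study for this tissue and are not independent evidence of a direction. Fos itself, the most used marker of recent activity, was at 3.995, 3.05 and 3.12 cpm and 3.51, 5.10, 8.89 and 4.78 cpm, overlapped between the groups and was not called (log2 fold change 0.71 ± 0.26, adjusted p = 0.212). Scg2, a granin of secretory vesicles, had log2 fold change 0.31 ± 0.061, adjusted p = 0.0199, and Dusp6, a phosphatase of ERK, log2 fold change 0.40 ± 0.086, adjusted p = 0.0290. Zfp36, an RNA-binding protein that destabilizes messages rich in A and U, had log2 fold change 0.51 ± 0.12, adjusted p = 0.0460 and lost its call without ethanol replicate 2 or 3 or MC903 replicate 2 or 3. Scg2 lost its call without ethanol replicate 1 or 2, and Dusp6 without any 1 of the ethanol replicates.

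Markers of nerve injury rose in part, and 13 of the 24 tested had a positive log2 fold change. The share that rose was 20.8%, against 1.91% of all genes tested. Of the 24 genes of that list tested, 5 rose (Socs3, Cacna2d1, Il6, Csf1 and Sox11) and none fell, with a median log2 fold change of 0.14. The count ran from 1 (without any one of the 3 ethanol libraries or MC903 replicate 3) to 8 (without MC903 replicate 4). Atf3, the transcription factor that injured sensory neurons induce, was at 6.18, 5.58 and 9.87 cpm with ethanol and 8.33, 6.55, 11.1 and 7.25 cpm with MC903 and overlapped (log2 fold change 0.19 ± 0.20, adjusted p = 0.719). Il6 was near the limit of detection, at most 1 count in an ethanol library and 4 to 10 counts in an MC903 library. Sox11, a regulator of axon growth, was at 12.2, 15.2 and 14.6 cpm and 16.4, 16.5, 22.2 and 20.8 cpm (log2 fold change 0.43 ± 0.12, adjusted p = 0.0949), and Csf1, a growth factor for macrophages, at 17.5, 16.4 and 17.7 cpm and 20.1, 20.7, 20.97 and 20.4 cpm (log2 fold change 0.26 ± 0.071, adjusted p = 0.0922). Cacna2d1, Il6, Csf1 and Sox11 each lost the call without any 1 of the ethanol replicates and without MC903 replicate 3.

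Some components of cytokine signalling rose as well. Of 22 cytokine receptor genes, 5 rose (Il31ra, Osmr, Il4ra, Tnfrsf1a and Il13ra1) and none fell, with a median log2 fold change of 0.21; the count was 2 without ethanol replicate 2 or 3 and 6 without MC903 replicate 4. Il4ra, shared by the interleukin-4 and interleukin-13 receptors, was at 34.02, 32.9 and 33.4 cpm and 43.7, 39.8, 47.2 and 39.0 cpm (log2 fold change 0.34 ± 0.072, adjusted p = 0.0290). Il13ra1, its partner in the interleukin-13 receptor, was at 9.99, 9.28 and 9.67 cpm and 12.9, 11.4, 12.7 and 12.9 cpm (log2 fold change 0.37 ± 0.091, adjusted p = 0.0578). The groups did not overlap in these genes, but Tnfrsf1a, a receptor of tumor necrosis factor (log2 fold change 0.34 ± 0.072, adjusted p = 0.0320), lost its call without any 1 of the ethanol replicates or MC903 replicate 2, Il4ra without ethanol replicate 2 or 3, and Il13ra1 without any 1 of the ethanol replicates or MC903 replicate 1 or 3. Socs3, the inhibitor that STAT3 induces and that blocks receptors of the interleukin-6 family, was at 7.12, 6.33 and 5.65 cpm with ethanol and 16.9, 16.7, 20.4 and 14.8 cpm with MC903. All MC903 libraries lay more than 2-fold above the highest ethanol library (log2 fold change 1.44 ± 0.12, adjusted p = 8.48e-05). Serpina3i and Serpina3g, serine protease inhibitors of the acute phase type, rose together: Serpina3i was at 2.25, 2.53 and 2.33 cpm with ethanol and 12.3, 9.24, 13.7 and 9.18 cpm with MC903 (log2 fold change 2.22 ± 0.17, adjusted p = 4.73e-05), and Serpina3g at 37.4, 38.7 and 39.0 cpm and 76.5, 65.5, 89.8 and 68.3 cpm (log2 fold change 0.96 ± 0.093, adjusted p = 0.000194). They belong to a cluster of near-identical genes on chromosome 12, so counts could be divided between copies. Pfkfb3, a regulator of glycolysis, was at 65.7, 64.9 and 63.04 cpm and 98.1, 89.3, 96.1 and 87.9 cpm (log2 fold change 0.52 ± 0.055, adjusted p = 0.000406).

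The 250 bases before the transcription start were read for the 12 genes with the smallest p-values among those that rose, since several of them are known STAT targets; RefSeq (GRCm38.p6) gave a promoter for 10 of the 12. The letters searched were TTCNNNGAA, the inverted repeat that STAT factors bind, which reads the same on both strands; this search was chosen after the values of the genes were seen. At least 1 promoter of 5 of the 10 genes held it: Il31ra, Bdnf, Serpina3i, Socs3 and Serpina3g. Over all 32851 promoters of the table, 7.02% held it. Of all the genes that rose, 8.19% of the 342 with a promoter held it, of those that fell 6.56% of 244, and of all genes tested 7.28% of 14047, so the whole set of raised genes was near the background. A match describes letters and is not a binding site. The 4 promoters below are shown because they belong to genes that carry the comparison, and the capitals mark the repeat. It starts 191 bases before the RefSeq start of Il31ra, 154 before that of Socs3 and 102 before that of Serpina3i. Before this start of Bdnf its distance lies between those of Serpina3i and Socs3. The RefSeq starts of Il31ra and Socs3 lie inside these genes as GENCODE M21 places them, which is the source of the Il31ra coordinates given above.
Il31ra, chr13:112580663-112580912, - strand: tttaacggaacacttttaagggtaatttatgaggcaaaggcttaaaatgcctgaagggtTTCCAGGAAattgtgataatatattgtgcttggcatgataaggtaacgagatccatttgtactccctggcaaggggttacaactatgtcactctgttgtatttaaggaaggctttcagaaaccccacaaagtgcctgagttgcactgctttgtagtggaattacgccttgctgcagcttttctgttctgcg
Socs3, chr11:117969367-117969616, - strand: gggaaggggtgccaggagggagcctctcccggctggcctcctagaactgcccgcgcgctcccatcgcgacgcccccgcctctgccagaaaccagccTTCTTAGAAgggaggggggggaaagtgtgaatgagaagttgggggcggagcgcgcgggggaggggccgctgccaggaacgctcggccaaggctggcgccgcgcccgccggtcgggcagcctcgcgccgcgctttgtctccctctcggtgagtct
Serpina3i, chr12:104262872-104263121, + strand: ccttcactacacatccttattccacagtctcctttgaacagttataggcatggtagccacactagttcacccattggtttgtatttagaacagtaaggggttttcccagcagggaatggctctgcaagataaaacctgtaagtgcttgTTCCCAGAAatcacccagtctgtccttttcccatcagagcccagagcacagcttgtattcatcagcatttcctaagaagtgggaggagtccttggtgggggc
Bdnf, chr2:109674450-109674699, + strand: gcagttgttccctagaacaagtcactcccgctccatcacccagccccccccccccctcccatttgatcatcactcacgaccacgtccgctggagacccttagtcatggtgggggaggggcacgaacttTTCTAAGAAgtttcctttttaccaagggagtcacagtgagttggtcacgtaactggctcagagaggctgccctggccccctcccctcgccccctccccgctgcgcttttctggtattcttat
The Bdnf promoter is 1 of 7 in the table, and the other 6 do not hold the repeat in these 250 bases. In Serpina3g it lies 33 bases before the start and has the same 9 letters as in Serpina3i, TTCCCAGAA.

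Some interferon-induced genes rose by modest amounts. Of 29 tested, 6 rose (Oasl2, Stat2, Ifit1, Irf9, Irf7 and Bst2), none fell, and all 29 had a positive log2 fold change, with a median of 0.42. The count ran from 2 (without ethanol replicate 2) to 9 (without MC903 replicate 4). Oasl2, an antiviral oligoadenylate synthetase-like protein, was at 32.6, 32.7 and 40.4 cpm with ethanol and 69.7, 55.8, 53.7 and 58.8 cpm with MC903 (log2 fold change 0.75 ± 0.097, adjusted p = 0.00144). Stat2, a subunit of the factor that type I interferons activate, was at 49.7, 46.6 and 49.3 cpm and 69.9, 61.6, 61.7 and 65.5 cpm (log2 fold change 0.42 ± 0.060, adjusted p = 0.00305). Irf7, a master regulator of the response, was at 3.25, 3.05 and 4.76 cpm and 7.63, 7.99, 4.04 and 7.73 cpm and overlapped, with MC903 replicate 3 below ethanol replicate 3 (log2 fold change 0.90 ± 0.22, adjusted p = 0.0607); it lost its call without ethanol replicate 1 or 2 or MC903 replicate 1 or 2. Only Oasl2 and Stat2 of the 6 kept their calls without each library in turn. With the spread shared with all 25 libraries neither was called, and Stat2 was not called with the spread shared with the anti-Gr1 libraries either. Ifitm3, a membrane protein that restricts virus entry, was not on that list and was at 18.7, 18.9 and 21.03 cpm and 35.3, 35.2, 35.9 and 31.7 cpm (log2 fold change 0.82 ± 0.073, adjusted p = 0.000108). It lost its call with the spread shared with all 25 libraries. Tmem173, which encodes the DNA sensor adaptor STING, was at 3.56, 3.42 and 3.62 cpm and 14.3, 9.34, 13.9 and 9.23 cpm, with no overlap (log2 fold change 1.72 ± 0.18, adjusted p = 0.000406).

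Some genes that respond to glucocorticoids rose and some clock genes fell. Of 22 glucocorticoid-responsive genes, 6 rose (Plin4, Mt2, Mt1, Fkbp5, Map3k6 and Errfi1), none fell, and 20 had a positive log2 fold change, with a median of 0.27. The count ran from 3 (without ethanol replicate 3) to 11 (without MC903 replicate 4). Plin4, a lipid droplet protein, was at 11.7, 5.62 and 3.62 cpm with ethanol and 29.3, 33.5, 45.4 and 31.6 cpm with MC903 (log2 fold change 2.37 ± 0.26, adjusted p = 0.000586). The metallothioneins Mt2 and Mt1, which bind zinc and copper, were at 45.3, 31.7 and 27.1 cpm and 109.7, 96.8, 84.9 and 57.8 cpm for Mt2 (log2 fold change 1.34 ± 0.19, adjusted p = 0.00277) and had log2 fold change 0.96 ± 0.15, adjusted p = 0.00601 for Mt1. Fkbp5, a co-chaperone of the glucocorticoid receptor, was at 56.7, 55.2 and 44.1 cpm and 98.8, 103, 84.7 and 63.3 cpm (log2 fold change 0.75 ± 0.14, adjusted p = 0.0138), a call lost without ethanol replicate 3. In Mt2 and Fkbp5, MC903 replicate 4 was the lowest of the MC903 libraries and still above every ethanol library. Mt2, Mt1 and Fkbp5 lost their calls with a robust spread, and Mt1 also with the spread shared with all 25 libraries. Of 19 circadian clock genes, 5 fell (Dbp, Nr1d2, Nr1d1, Per3 and Ciart) and 1 rose (Bhlhe41), with a median of -0.11. The lowered count ran from 2 (without ethanol replicate 2) to 7 (without MC903 replicate 4). Dbp, an output transcription factor of the clock, was at 16.7, 15.1 and 16.5 cpm and 10.7, 11.3, 9.47 and 10.5 cpm (log2 fold change -0.61 ± 0.089, adjusted p = 0.00294). Dbp lost its call with the spread shared with the anti-Gr1 or all 25 libraries. Nr1d2, a repressor of the clock, was at 117.6, 122.9 and 116.5 cpm and 82.8, 85.1, 83.1 and 107 cpm, and MC903 replicate 4 was the nearest to the ethanol level; Nr1d2 had log2 fold change -0.41 ± 0.080, adjusted p = 0.0211 and lost its call without ethanol replicate 2. The time of day at which each ganglion was taken is not given in the labels.

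Markers of lymphocytes were at low levels. Of the 12 T cell markers tested, 1 rose and none fell, with a median log2 fold change of -0.054. The raised count was 1 without each library in turn, and 1 gene fell without MC903 replicate 4. Summed over 14 markers the level was 8.06 to 9.01 cpm with ethanol and 11.5 to 17.4 cpm with MC903, without overlap. Without the raised gene the sums of the groups overlapped. The subunits of the T cell receptor complex had few counts: Cd3d had 9 to 14 counts in the ethanol libraries and 4 to 11 in the MC903 libraries, Cd3e 1 to 4 and 1 to 5, and Cd3g 1 to 6 and 1 to 5. Of the B cell genes the study names, Rag1 was at 0.187, 0.0937 and 0.198 cpm and 0.452, 0.481, 0.116 and 0.338 cpm (log2 fold change 1.14 ± 0.58, adjusted p = 0.398), with overlap, and Rag2 had at most 2 counts in any library. None of the 11 B cell markers tested was called. Of the study's 9 trigeminal immune and neuroinflammatory genes, 8 could be tested and 6 rose, a count that carries no independent support because the study chose them on trigeminal data of this series.

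Macrophage genes rose in part. Of 12 macrophage markers, 4 rose (C1qa, C1qb, C1qc and Lyve1) and none fell, with a median log2 fold change of 0.29; the count was 1 without ethanol replicate 2 or 3 and 5 without MC903 replicate 4. The 3 subunits of complement component C1q moved together: C1qb was at 10.3 ± 0.44 cpm (SD, n = 3) with ethanol and at 16.8 ± 2.6 cpm (SD, n = 4) with MC903 (log2 fold change 0.70 ± 0.12, adjusted p = 0.00863), C1qa had log2 fold change 0.64 ± 0.15, adjusted p = 0.0484 and C1qc log2 fold change 0.69 ± 0.14, adjusted p = 0.0278. Summed over the 12 markers the level was 99.9 to 116.2 cpm with ethanol and 109 to 154 cpm with MC903, which overlapped through MC903 replicate 4. None of the 22 chemokine and leukotriene axis genes was called, among them Ccl2 at 0.437, 0.469 and 0.645 cpm and 1.25, 0.385, 2.14 and 1.26 cpm (log2 fold change 1.24 ± 0.46, adjusted p = 0.227). One chemokine axis gene was called without MC903 replicate 2 and 1 without MC903 replicate 4. Of 10 MHC class II antigen presentation genes, 1 rose, Ctss, the cathepsin that trims the invariant chain, from 9.30, 10.4 and 11.6 cpm to 19.5, 17.7, 13.2 and 14.98 cpm (log2 fold change 0.65 ± 0.13, adjusted p = 0.0222), a call lost without ethanol replicate 1 or 2. None of the 13 neutrophil markers tested was called, and all 13 had a negative log2 fold change, with a median of -0.90 (-0.13 without ethanol replicate 3 and -1.86 without MC903 replicate 1); their sum was 14.3 to 52.7 cpm with ethanol and 10.7 to 28.3 cpm with MC903. Ly6g, the antigen that defines neutrophils, had at most 1 count in any library. Without ethanol replicate 2, 4 of these markers fell, without MC903 replicate 4, 3, and without MC903 replicate 1, 1. None of the 8 monocyte and 9 mast cell markers was called.

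Some fibroblast genes fell, collagens among them. Of 12 fibroblast markers, 5 fell (Col3a1, Col1a2, Lum, Mfap5 and Col1a1) and none rose, with a median log2 fold change of -0.22 (-0.11 without ethanol replicate 2); 2 fell without ethanol replicate 3, and without MC903 replicate 4, 5 fell and 3 others rose. Col3a1, a fibrillar collagen, was at 73.7, 72.7 and 70.6 cpm with ethanol and 55.01, 46.1, 39.0 and 41.9 cpm with MC903 (log2 fold change -0.67 ± 0.090, adjusted p = 0.00188). Col14a1, a collagen that binds fibrils and was not on the list, fell from 39.8, 39.6 and 37.7 cpm to 25.2, 28.3, 24.2 and 28.8 cpm (log2 fold change -0.55 ± 0.072, adjusted p = 0.00147). With the spread shared with all 25 libraries neither Col3a1 nor Col14a1 was called. Col14a1 was not called with the spread shared with the anti-Gr1 libraries either. Summed over the 12 markers the level was 1341 to 1636 cpm with ethanol and 1284 to 1930 cpm with MC903, so the groups overlapped in the sum. Ethanol replicate 3 held other tissue RNA as well: 4 of the 12 skeletal muscle markers and 2 of the 9 bone and cartilage markers fell, and none of these 6 was called without that library. The count of lowered muscle markers ran from 0 (without ethanol replicate 3) to 9 (without MC903 replicate 4), and that of bone and cartilage markers was also 0 without ethanol replicate 1 or MC903 replicate 1, 2 or 3. Bone and cartilage markers summed to 27.05, 16.34 and 30.05 cpm in ethanol replicates 1 to 3 and to 14.98 to 19.63 cpm with MC903. Col3a1 and Col14a1 were both called without each library in turn. Among the ethanol libraries, replicate 3 had the lowest level of both genes and replicate 1 the highest. The part of such tissue in the lowered collagens was not tested.

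Markers of the ganglion's own cells were called in part, and over all genes tested 3.36% were called. The share was 16.7% for sensory neuron, 25% for satellite glia, 8.33% for Schwann cell and 10% for endothelial markers. The groups did not overlap in 12 of the 18 sensory neuron markers, against 13.1% of all genes tested. Of 18 sensory neuron markers, 3 rose (Calca, Trpv1 and Prph) and none fell, with a median of 0.13; without MC903 replicate 4, 10 rose and 4 fell. Prph, an intermediate filament of small neurons, was at 842, 816 and 818 cpm with ethanol and 1162, 1035, 1099 and 897 cpm with MC903 (log2 fold change 0.35 ± 0.069, adjusted p = 0.0222), a call lost without ethanol replicate 2 or 3. Of 12 satellite glia markers, Glul and Gja1 rose and Ptprz1 fell, with log2 fold changes of 0.21, 0.30 and -0.29; without MC903 replicate 4, 4 rose and 2 fell. Of 12 myelinating Schwann cell markers 1 rose (Ncmap, log2 fold change 0.32; without MC903 replicate 4, 3 rose and 3 fell), and of 10 endothelial markers 1 rose (Esam, 0.59). Of 9 markers of the central nervous system 1 rose (Aldh1l1, 0.53); 6 rose without MC903 replicate 4 and none without ethanol replicate 2 or 3. No gene was called among the red blood cell (8 tested), pituitary (6), skin epithelium (7) and fat cell (4) markers.

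The 12 lowered genes with the smallest p-values included several not yet described. Ano3, an anoctamin of nociceptors, was at 316, 334 and 330.5 cpm with ethanol and 245, 245, 222 and 263 cpm with MC903 (log2 fold change -0.42 ± 0.055, adjusted p = 0.00145). Ptgfr, the prostaglandin F receptor, was at 40.5, 41.1 and 44.2 cpm and 30.8, 30.4, 27.4 and 30.6 cpm (log2 fold change -0.49 ± 0.065, adjusted p = 0.00147). Unc80, a subunit of the sodium leak channel, was at 343, 331 and 320.4 cpm and 248.8, 239, 260.4 and 277 cpm (log2 fold change -0.37 ± 0.054, adjusted p = 0.00295), and Pclo, a scaffold of the presynaptic active zone, at 365, 361 and 341 cpm and 277, 268, 297 and 288 cpm (log2 fold change -0.33 ± 0.049, adjusted p = 0.00329). In each of these 4 genes the groups did not overlap. Pdzd2 (log2 fold change -0.39 ± 0.054, adjusted p = 0.00213) and Itm2a (log2 fold change -0.71 ± 0.11, adjusted p = 0.00405) complete the 12 lowered genes with the smallest p-values. Unc80, Pclo, Pdzd2 and Itm2a lost their calls with the spread shared with all 25 libraries. The lowered genes had long transcripts: the median summed exon length was 7718 bases for the genes that fell, 3612 for those that rose and 3200 for all genes tested, and among protein-coding genes 8263, 3690 and 4225. The part of transcript length in these calls was not tested.

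No gene was called either in 3 further lists: 6 vitamin D receptor genes (median log2 fold change 0.00054), 17 heat shock and chaperone genes (0.014) and 23 cell cycle genes (-0.15). MC903 acts on the vitamin D receptor, and Cyp24a1, the gene that this receptor induces most, was at 0.0624, 0.0469 and 0 cpm with ethanol and 0.301, 0.0481, 0.116 and 0.0483 cpm with MC903, near the limit of detection and with overlap (log2 fold change 1.70 ± 1.05, adjusted p = 0.498). Hspa1a had log2 fold change -0.059 ± 0.12, adjusted p = 0.869. Without MC903 replicate 4, 4 of the heat shock genes rose.

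**Figure D2:**
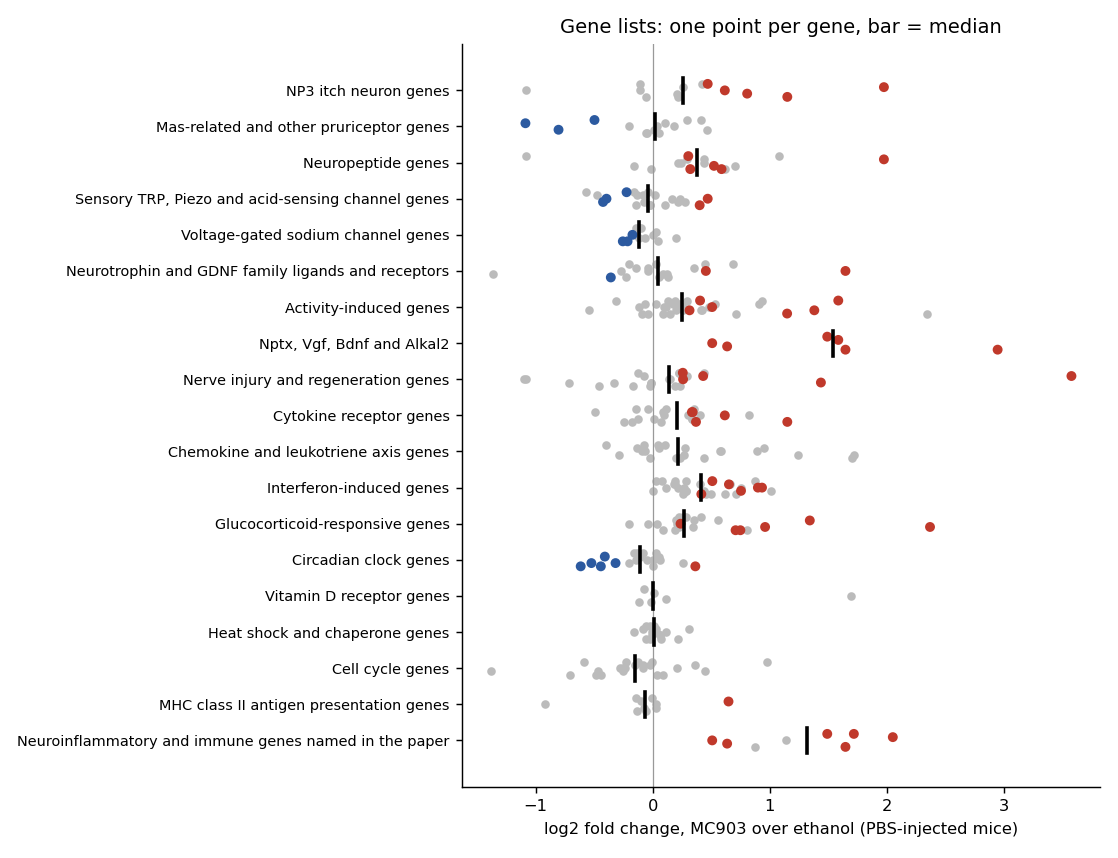
Log2 fold change of MC903 over ethanol (x axis) for each tested gene of 19 lists (rows) in PBS-injected mice; red and blue points passed the test as higher or lower, grey points did not, and the black bar is the list's median. All 6 genes of the Nptx, Vgf, Bdnf and Alkal2 list are red, and the vitamin D, heat shock, chemokine and cell cycle rows are grey throughout.

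The same comparison could be set beside that in other wild-type ganglia of day 8, which share no library with it. In uninjected mice (5 MC903 and 5 ethanol libraries, in 2 styles of label taken as a term) 41 of 25600 genes were called (0.16%), and in mice injected with anti-Gr1 (4 and 4 libraries) 456 of 24233 (1.88%). Of the 41 genes called in uninjected mice, 33 were also called in PBS-injected mice, all in the same direction; they are 80.5% of the uninjected calls and 4.16% of the PBS calls. Of the anti-Gr1 calls that could be compared, 138 of 454 were shared, all in the same direction, which is 30.4% of the anti-Gr1 calls and 17.3% of the PBS calls. Of the genes called in PBS-injected mice, 88.3% had the same sign in uninjected mice, where 61.8% of all genes did, and 79.8% had it in anti-Gr1 mice, where 54.3% of all genes did. Il31ra rose by 1.15 in PBS-injected, by 1.30 ± 0.10 in uninjected and by 1.23 ± 0.097 in anti-Gr1 mice (log2, ± SE). Bdnf had log2 fold changes of 1.65, 1.38 and 1.32 in that order, Nptx2 1.49, 1.40 and 1.34, and Mrgprb5 -1.09, -0.97 and -1.18. These values lay close together. Socs3 had 1.44, 1.004 and 0.32, Junb 1.15, 0.92 and 0.090, and Nptx1 0.51, 0.55 and -0.048, with the smallest values in anti-Gr1 mice. Interferon-induced genes had a median log2 fold change of 0.42 in PBS-injected, -0.93 in uninjected and -0.33 in anti-Gr1 mice. In uninjected mice 1 ethanol library (plainly titled replicate 3) summed to 1341 cpm over these genes, against 349 to 602 cpm in the other 9, and without it the median was -0.45. The count of genes called in uninjected mice ran from 5 (without either bracket titled ethanol library) to 71 (without plainly titled ethanol replicate 2).

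**Figure D3:**
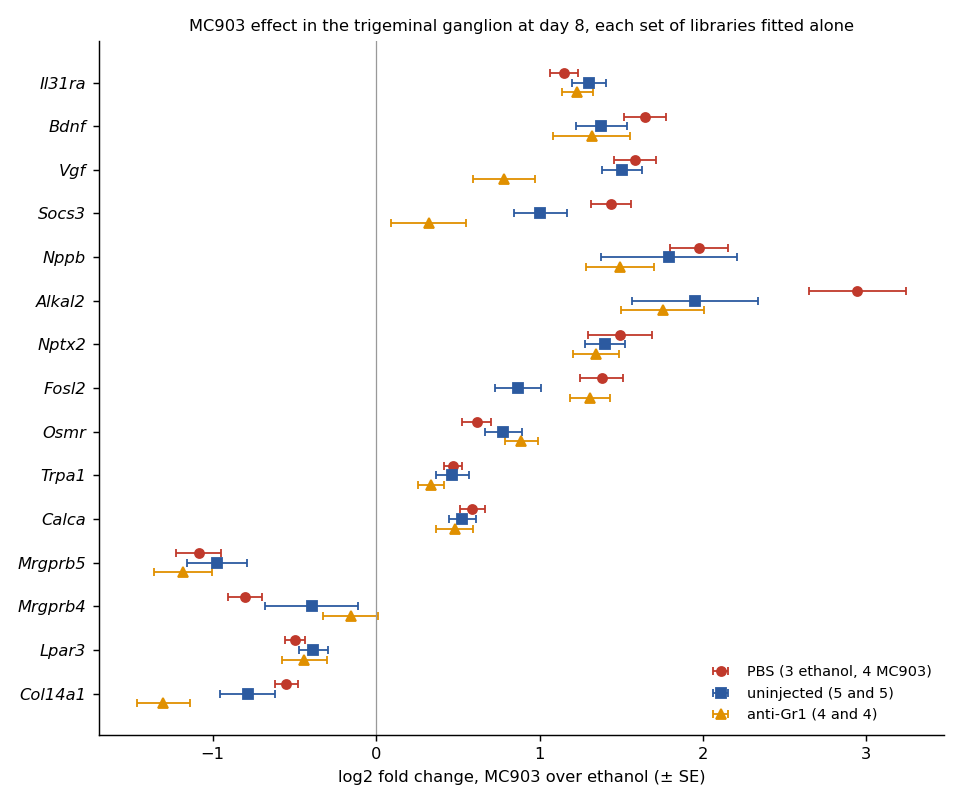
Log2 fold change of MC903 over ethanol ± SE (x axis) for 15 genes in PBS-injected (circles), uninjected (squares) and anti-Gr1-injected (triangles) mice, each fitted alone. Il31ra lies between 1.15 and 1.30 in the 3 settings, and Socs3 runs from 0.32 to 1.44.

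The differences between these effects were tested directly. Between PBS-injected and uninjected mice, 0 of 26855 genes had a different MC903 effect at an adjusted p under 0.1 in edgeR's test; 736 had an unadjusted p under 0.05, and DESeq2 called 3. No gene named above, those of the interferon list included, therefore passed this test. Between PBS-injected and anti-Gr1 mice, 9 of 25760 genes did (0.0349%), 8 of them with the higher effect in PBS-injected mice. Socs3, Junb and Nptx1 were not among them, with adjusted p-values of 0.242, 0.172 and 0.496. Of the 9, 4 were genes of antigen presentation. H2-Ab1, a chain of the class II molecule I-A, was at 15.7, 16.5 and 17.5 cpm in PBS and ethanol libraries, 21.1, 14.02, 13.6 and 19.2 in PBS and MC903, 22.3, 25.1, 26.3 and 22.8 in anti-Gr1 and ethanol, and 6.10, 3.46, 9.49 and 4.91 in anti-Gr1 and MC903. The MC903 and ethanol libraries overlapped in PBS-injected mice and were far apart in anti-Gr1 mice, where MC903 was lower. The log2 fold change was 0.029 ± 0.14 in PBS-injected, -1.996 ± 0.22 in anti-Gr1 and -0.88 ± 0.14 in uninjected mice, and the PBS minus anti-Gr1 difference was 2.01 ± 0.29 (SE), adjusted p = 0.0193. H2-Eb1 (difference 1.53) and H2-Aa (1.65) followed the same order, as did Serpinh1, a collagen chaperone (1.06). The class I gene H2-K1 (difference 0.65) was itself raised in PBS-injected mice. Its log2 fold changes were 0.41 in PBS-injected, -0.25 in anti-Gr1 and -0.47 in uninjected mice. In edgeR's test H2-K1 was not called in anti-Gr1 (adjusted p = 0.271) or uninjected mice (adjusted p = 0.616). Without plainly titled ethanol replicate 3 its value in uninjected mice was -0.26. The differences of H2-Eb1, H2-Aa, Serpinh1, H2-K1 and the other 4 genes had adjusted p-values just under the threshold of 0.1. Only H2-Ab1 passed at 0.05. In uninjected mice, which received no injection, H2-Ab1 passed edgeR's test as lower with MC903 (adjusted p = 0.0288). This call was lost without either bracket titled ethanol library, bracket titled MC903 replicate 2 or plainly titled MC903 replicate 3. H2-Aa in these mice had a log2 fold change of -1.03 and passed the test, a call lost without 5 of the 10 libraries in turn. H2-Eb1 had -0.86 and did not pass. The count of 9 was 0 without ethanol replicate 1, 27 without MC903 replicate 4 and 1 with edgeR's own expression filter. H2-Ab1 kept its call under 12 of 13 alternatives (all but the one without ethanol replicate 1), and each of the others under 5 to 7.

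**Figure D4:**
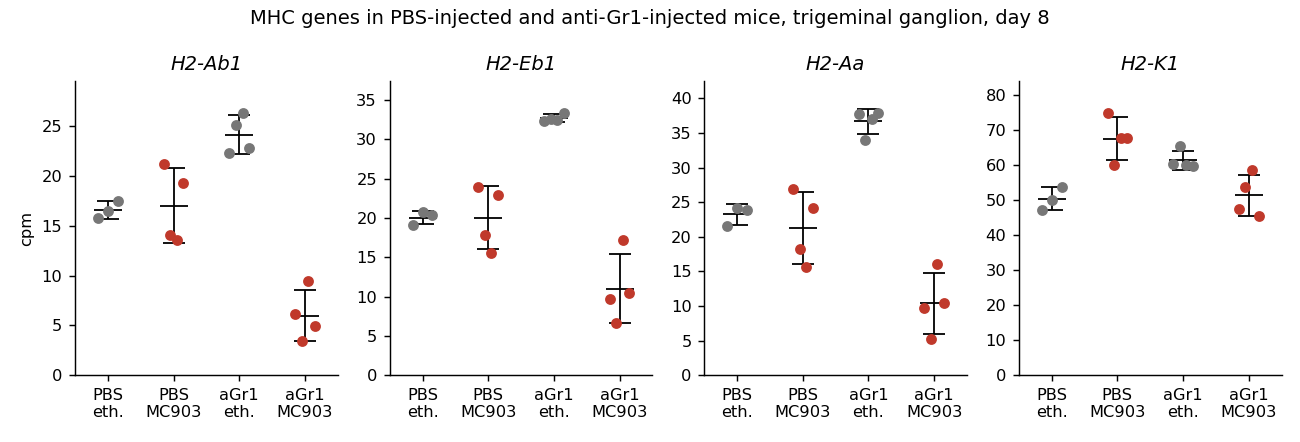
Expression in cpm (y axis, from 0) of 4 MHC genes in PBS-injected (left pair) and anti-Gr1-injected (right pair) mice treated with ethanol (eth., grey) or MC903 (red); points are libraries, bars the mean ± SD. The class II genes H2-Ab1, H2-Eb1 and H2-Aa overlap between treatments in PBS-injected mice and are separate, lower with MC903, in anti-Gr1-injected (aGr1) mice.

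Over both treatments, the level of 9126 of 25760 genes (35.4%) differed between PBS-injected and anti-Gr1 mice, 4514 higher and 4612 lower with PBS. Of 80 ribosomal protein genes 67 were lower with PBS and none was higher, with a median log2 difference of -0.51. Genes of the sodium channel list were higher with PBS in 8 of 14 and none was lower, against 4514 higher of all 25760 tested. Other lists moved as well. Of the TRP, Piezo and acid-sensing channel genes 10 of 21 were higher and 3 lower. Of the glucocorticoid-responsive genes 12 of 22 were lower and 1 higher. Of 15 neutrophil markers, 8 were lower in PBS-injected than in anti-Gr1 mice and none was higher, with a median log2 difference of -1.50; their sum was 10.7 to 52.7 cpm in PBS-injected and 25.4 to 209 cpm in anti-Gr1 mice. The red blood cell markers ran from 339 to 1364 cpm in PBS-injected and from 375 to 7427 cpm in anti-Gr1 mice. The labels do not say whether the PBS and anti-Gr1 ganglia were taken and sequenced together, so injection and any such difference cannot be told apart.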

How the data were processed

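RNA was extracted from trigeminal ganglia, and poly(A)-selected libraries were sequenced as single-end reads. The authors aligned the reads to mm10 (TopHat with Bowtie2) and counted them per gene with htseq-count. The deposited values are raw counts per Ensembl gene, without normalization, for 46078 genes; tool versions, the annotation release and the strand setting are not given in the sources used here. Without strand, reads of a gene and of an antisense neighbour cannot be told apart. The tally lines were left out of totals and tests: reads on no gene were 10.1% to 13.1% and ambiguous reads 2.39% to 2.74% of the total in the 7 libraries. By library, reads on no gene were 13.1%, 12.03% and 12.29% with ethanol and 10.1%, 10.91%, 10.97% and 12.96% with MC903, in replicate order. MC903 replicate 4 lay with the ethanol libraries, as it did on the first principal component. Ribosomal protein genes summed to 8437 to 8865 cpm with ethanol. MC903 replicates 1 to 3 held 9177 to 10671 cpm and replicate 4 held 7604 cpm. The part of such library differences in the calls was not tested. GENCODE M21 (GRCm38) supplied symbols and coordinates for 45229 identifiers.

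The 7 libraries were fitted alone with edgeR 4.0.16 (R 4.3.3; TMM, glmQLFit, glmQLFTest) on genes whose counts in these libraries summed to 10 or more, with Benjamini-Hochberg adjustment over all genes tested and a threshold of 0.1, as the study used in this tissue; the study's tool, DESeq, was not run, and DESeq2 1.42.0 served as an alternative. Effects in other mice were compared as interaction terms over 17 libraries (PBS and uninjected) or 15 libraries (PBS and anti-Gr1). Fits were tested on simulated data. Marker sums and library make-up use cpm without TMM. Alternatives were RLE size factors, filterByExpr, no filter, DESeq2, a robust or shared estimate of the spread, a threshold of 0.05, the replicate number as a block, leaving out each library, and the plainly titled uninjected libraries alone; gene lists without each library, and the uninjected comparison without each of its libraries, were added after the data were seen. Between 15931871 and 21536640 counts were available per library, and 3 counts were taken as the floor of detection.

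The members, the gene lists and the rule for naming genes were chosen with earlier results of these data known. Named are the up to 12 called genes of each direction that rank first by p-value, the trigeminal genes in the study's text, the called members of each list (up to 8, otherwise the 2 with the smallest p-values), fixed reference genes (Fos, Junb, Atf3, Calca, Tac1, Trpv1, Scn10a and Prph), and up to 5 genes per direction in the other tests; other genes, such as members that were not called, were chosen after their values were seen. Predicted genes were counted but not named, and a few genes that enter the counts are not reported here.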

Additional observations from a re-analysis of the deposited data

Results flagged for a closer look

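Among the named genes and marker sums, checked within the 4 MC903 libraries, 8 (6.45% of the values checked) had 1 library far from the other 3 by Dixon's criterion, a share near the 1 in 20 that chance flags. MC903 replicate 3 was the highest for Nppb, at 15.5 cpm against 10.3 to 11.1 cpm, and the lowest for Irf7 (4.04 cpm against 7.63 to 7.99 cpm), Bst2 (4.39 cpm against 6.26 to 6.43 cpm) and Ptgfr (27.4 cpm against 30.4 to 30.8 cpm). MC903 replicate 4 was the lowest for Ifitm3 (31.7 cpm against 35.2 to 35.9 cpm) and the highest for Nr1d2 (107 cpm against 82.8 to 85.1 cpm) and Il6 (0.483 cpm against 0.193 to 0.231 cpm). MC903 replicate 2 was the lowest for Il13ra1 (11.4 cpm against 12.7 to 12.9 cpm). The effect of MC903 differed between PBS-injected and anti-Gr1 mice, by the interaction term, in 9 genes, 8 of which are given here: the log2 difference (PBS minus anti-Gr1) was 2.01 for H2-Ab1, 1.53 for H2-Eb1, 1.65 for H2-Aa, 0.65 for H2-K1, 1.06 for Serpinh1, 1.07 for Cdh15, 3.86 for Ccl7 and -1.33 for Arrdc2.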

How the results depend on the processing

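No named gene that was called changed direction, while the medians of 11 of the 37 gene lists, all between -0.30 and 0.11, changed sign without some 1 library. The 796 calls became 1271 without a filter, 466 at a threshold of 0.05, 145 or 68 with the spread shared with the anti-Gr1 or all 25 libraries, and 246 to 3602 without 1 library; RLE size factors (790), filterByExpr (822), DESeq2 (958) and a robust spread (884) stayed within 1.5 times. With the replicate block 3479 genes were called, but the numbers did not pair the libraries: same-numbered libraries correlated at 0.0031, 0.016 and -0.10 in their deviations from the group means, and not every library correlated best with its own number. Replicate 4 exists only among the MC903 libraries, so its block term takes up that library and it adds nothing to the MC903 term. The count was near the 3602 genes called without MC903 replicate 4. The same holds for that library in the blocked interaction terms. The 0 genes with a different effect from uninjected mice became 26 without a filter and 3 with DESeq2, and stayed at 0 with the replicate block, with RLE, filterByExpr, 0.05, the plainly titled libraries alone and without any 1 PBS library; without each uninjected library, tried after the data were seen, it was 0 to 1. The genes with a different effect from anti-Gr1 mice, 9 or 0.0349% of those tested, became 0.00506% with filterByExpr, 0.490% without a filter, 0.571% with DESeq2, 0.00388% at 0.05, 0.439% with the replicate block and 0 to 0.106% without 1 library. The 9126 level differences between the injections lay between 7446 and 9233. Of the 74 named genes called, 41 were called without each library in turn and 22 under all 16 alternatives; the cause of the losses was not tested. Depth limits genes of a few counts, such as Il6, Cyp24a1 and Rag1, whose changes were not detectable or rest on single reads.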

Other observations

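Of the 57 genes called under every alternative, 35 fall outside the rule for naming genes, and those given here were chosen after their values were seen. Several are known acute phase or interleukin-6 family response genes: Bcl3, a cofactor of NF-kappaB, had a log2 fold change of 1.41 ± 0.16 (SE), the protease inhibitor Serpina3n 1.25 ± 0.14, Sbno2 0.98 ± 0.11, and the kinase Pim3 0.69 ± 0.084. The lysyl oxidases Lox and Loxl4, which cross-link collagen, rose by 1.55 ± 0.17 and 1.55 ± 0.19, while the collagens named above fell. Among regulators of stress and of the cell cycle, Gadd45g rose by 1.25 ± 0.15, and Atf4, the main transcription factor of the integrated stress response, by 0.40 ± 0.065. Nt5e, the ectoenzyme that makes adenosine from AMP, rose by 0.96 ± 0.11, and Siglec1, a sialic acid receptor of macrophages, by 0.96 ± 0.14. Prkcq, protein kinase C theta, was the 1 gene of these that fell, by 0.58 on the log2 scale.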
